A study of Homo sapiens with 36 samples.

Results

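Glycolysis and hypoxia genes were followed through a cardiomyocyte differentiation of human embryonic stem cells with and without PERK, the endoplasmic reticulum stress kinase encoded by EIF2AK3. By symbol and known role, 40 of the 58721 genes in the count table were chosen, with earlier results of these data known. Glucose uptake, glycolysis, lactate export and pyruvate entry account for 29 of them, and the hypoxia response for 11. RNA was sequenced from H1 cells, an established human embryonic stem cell line, labelled PERK KO or wild type, at days 0, 1, 2, 3, 5 and 10, with 3 libraries in each of the 12 groups. These days are those of the sample labels, while the series' design text names collection at days 0, 2 and 6. Both genotypes were kept in E8 medium before day 0 and then received the WNT activator CHIR99021 on days 0 to 1, the WNT inhibitor IWP2 on days 2 to 5, heparin on days 1 to 7 and insulin from day 7, so the day 0 libraries stand for cells before the cardiac medium acted. How PERK was disrupted, how many clones were used and whether libraries of a group are separate cultures are not stated in the sources used here, so p-values measure only the spread between these samples, which may be technical.

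Glycolysis splits glucose into pyruvate in the cytosol, and most of its steps can be run by more than 1 isoenzyme. Lactate dehydrogenase and the monocarboxylate transporters then send carbon out as lactate, while the pyruvate dehydrogenase complex, held back by the kinases PDK1 to PDK4, sends it to mitochondria. The HIF transcription factors, whose alpha subunits are hydroxylated and destroyed when oxygen is plentiful, raise many of these genes by binding short core letters in their promoters. Pluripotent stem cells are known for a high rate of glycolysis, and heart muscle cells for burning fatty acids and lactate in mitochondria.

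The promoters of 5 members are printed because they span the range found for the HIF core letters, from many to none, and because these genes moved apart in the results below. Each line gives the 250 bases before the RefSeq gene start (GRCh38.p14), 5′ to 3′ on the gene's strand, with the core letters ACGTG or GCGTG on either strand in capitals. LDHA, the muscle-type lactate dehydrogenase subunit, lies at chr11:18394313-18394562 on the plus strand, BNIP3, a mitophagy receptor, at chr10:131981924-131982173 on the minus strand, and ADM, the peptide adrenomedullin, at chr11:10304823-10305072 on the plus strand. LDHB, the heart-type subunit, lies at chr12:21657843-21658092 on the minus strand, and SLC16A3, the lactate exporter MCT4, at chr17:82228185-82228434 on the plus strand.
LDHA: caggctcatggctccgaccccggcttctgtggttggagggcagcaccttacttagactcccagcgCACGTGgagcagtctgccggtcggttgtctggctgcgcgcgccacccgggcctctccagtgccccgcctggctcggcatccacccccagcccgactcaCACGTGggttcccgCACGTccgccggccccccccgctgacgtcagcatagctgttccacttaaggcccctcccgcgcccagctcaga
BNIP3: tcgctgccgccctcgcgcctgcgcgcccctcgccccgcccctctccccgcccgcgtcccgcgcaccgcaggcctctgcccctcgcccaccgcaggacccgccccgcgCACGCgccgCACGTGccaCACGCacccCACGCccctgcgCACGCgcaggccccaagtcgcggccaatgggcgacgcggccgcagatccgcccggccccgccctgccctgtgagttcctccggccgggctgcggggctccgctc
ADM: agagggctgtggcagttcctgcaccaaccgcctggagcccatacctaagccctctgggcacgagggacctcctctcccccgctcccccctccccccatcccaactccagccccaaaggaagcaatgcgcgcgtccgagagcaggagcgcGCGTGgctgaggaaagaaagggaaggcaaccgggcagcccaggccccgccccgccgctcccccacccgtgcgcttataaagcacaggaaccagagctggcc
LDHB: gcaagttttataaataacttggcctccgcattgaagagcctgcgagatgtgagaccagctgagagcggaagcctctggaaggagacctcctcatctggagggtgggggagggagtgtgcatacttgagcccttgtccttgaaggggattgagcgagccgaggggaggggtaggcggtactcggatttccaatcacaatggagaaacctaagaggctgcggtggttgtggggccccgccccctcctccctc
SLC16A3: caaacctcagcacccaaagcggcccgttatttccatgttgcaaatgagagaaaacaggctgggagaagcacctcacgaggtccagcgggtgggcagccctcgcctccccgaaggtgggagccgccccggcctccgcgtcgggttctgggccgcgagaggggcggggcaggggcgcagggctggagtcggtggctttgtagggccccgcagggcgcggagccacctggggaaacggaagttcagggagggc

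The LDHA window held 5 matches and the BNIP3 window 6, with overlapping matches counted apart, while ADM held 1 and neither LDHB nor SLC16A3 held any before the start. Over the whole window of 300 bases (250 before and 50 after the start), 25 of the 35 members with a RefSeq entry held at least 1 match (71.4%), against 48.4% of all 35116 promoters in the table. At least 2 matches stood in 10 of the 35 members, against 23.1% of all promoters. All 5 HIF target genes with an entry held the letters, and so did 10 of 15 glycolytic step genes. The E-box CACGTG, which overlaps ACGTG, was present in 5 members, against 7.26% of all promoters. These matches describe letters and not binding.

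The libraries held between 14002118 and 25860469 counted fragments. PERK KO replicate 2 of day 0 differed from its group, with a mean effective transcript length of 1736 nt against 2540 and 2495 nt in the other pair, and wild-type day 2 replicate 3 and the wild-type libraries of days 3 and 10 were also spread more than most groups. EIF2AK3 itself did not pass the test at any day (log2 fold changes between -0.37 and 0.45, edgeR adjusted p between 0.127 and 0.981), so its counts do not check the KO label. Levels of cell type markers moved with genotype from day 0 on. The 6 neuroectoderm markers summed to 69.2 to 85.1 CPM (counts scaled to each library's TMM-adjusted total) in PERK KO at day 0, against 28.2 to 35.2 CPM in wild type, and the 4 primitive streak markers to 642 to 792 CPM in PERK KO at day 1, against 2620 to 2740 CPM in wild type. The summed level of 8 pluripotency markers at day 5 was 7260 to 7630 CPM in PERK KO, against 1610 to 1780 CPM in wild type, and all 8 were counted in every group. The 9 cardiomyocyte markers summed to 117 to 446 CPM in PERK KO at day 10, against 13700 to 18100 CPM in wild type. The neuroectoderm markers summed to 728 to 884 CPM in PERK KO at day 10, against 25.6 to 27.2 CPM in wild type, where SOX1 was at 0. At day 2 they were lower in PERK KO (107 to 108 CPM, against 195 to 208 CPM in wild type, where PAX6 was at 0). The 5 fibroblast and stroma markers summed to 188 to 271 CPM in PERK KO at day 10, against 3550 to 5170 CPM in wild type. The 5 endoderm markers summed to 311 to 525 CPM in PERK KO at day 10, against 1330 to 2060 CPM in wild type. In these bulk samples a change in the share of a cell type and a change of RNA per cell cannot be told apart, and this holds for every genotype difference given here.

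Levels are given as CPM scaled with TMM factors, and differences between genotypes as log2 fold changes of PERK KO over wild type ± standard error (SE) from an edgeR quasi-likelihood fit of all 36 libraries. A gene was called when its Benjamini-Hochberg adjusted p over the 19772 genes tested was under 0.05. All 40 members were tested. At day 0, 10 members were called higher and 0 lower in PERK KO, where 12.5% of all genes were called higher, 8.64% lower and 21.1% in all. Day 1 gave 7 higher and 1 lower, with 8.11% of all genes higher, 7.72% lower and 15.8% in all; this count of 8 became 3 without PERK KO day 1 replicate 3 and 17 in a fit of only the 6 day 1 libraries. Day 2 gave 9 higher and 9 lower, with 20.9% of all genes higher, 21.7% lower and 42.6% in all. Day 3 gave 15 higher and 11 lower, with 21.9% of all genes higher, 23.2% lower and 45.1% in all. Day 5 gave 9 higher and 23 lower, with 28.6% of all genes higher, 30.5% lower and 59.0% in all. Day 10 gave 6 higher and 24 lower, with 33.3% of all genes higher, 34.0% lower and 67.3% in all. The median member difference was -0.74 at day 5 and -0.87 at day 10, beside all-gene medians of -0.02 and 0.00. The count at day 10, 30 of 40, is close to that background.

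**Figure D1:**
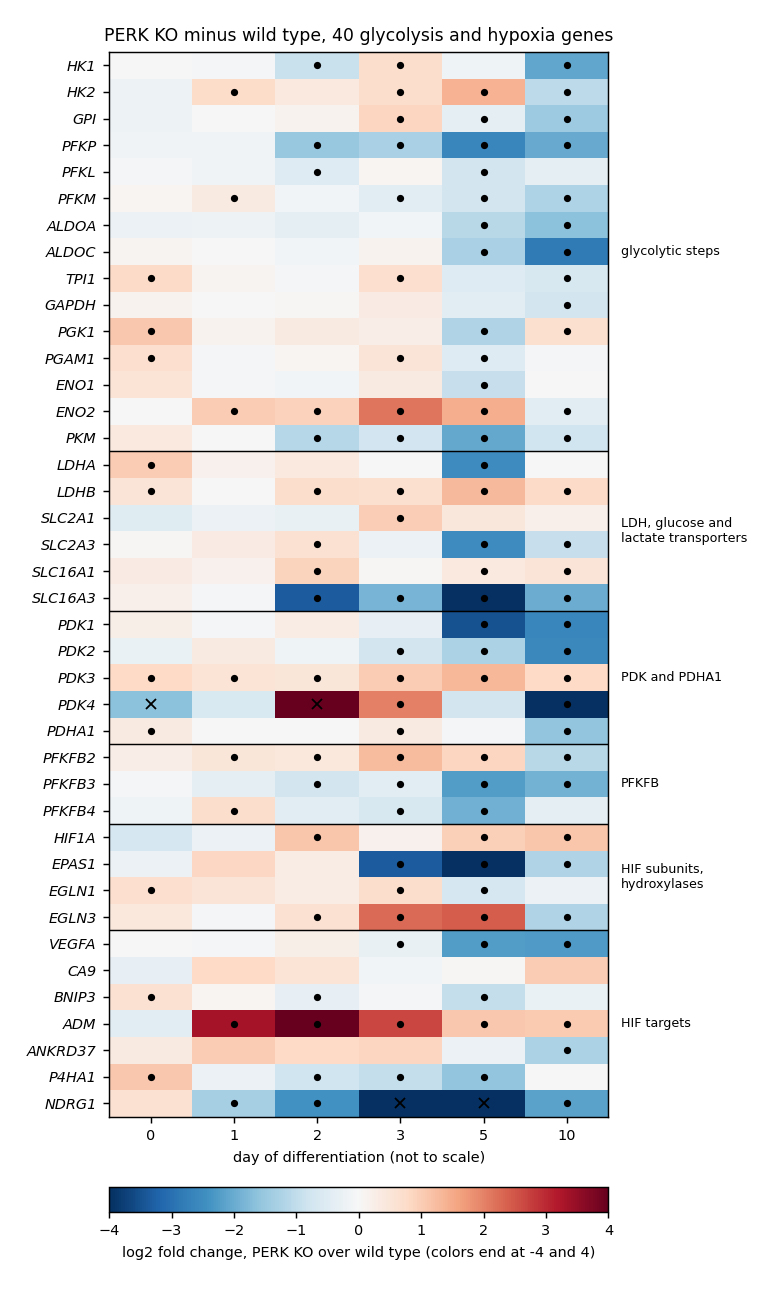
Log2 fold change of PERK KO over wild type for each of the 40 genes (rows, grouped by role) at the 6 sampled days (columns); dots mark genes called by edgeR and crosses mark cells where a genotype had 3 counts or fewer in all. The left columns are pale, and the blue of lower levels in PERK KO fills most rows at days 5 and 10, with PDK3, LDHB, ADM and HIF1A red against it.

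Early differences were few and several rested on 1 library. PGK1, which makes ATP from bisphosphoglycerate, had 569, 1020 and 614 CPM in PERK KO at day 0, against 363, 336 and 336 CPM in wild type, with no overlap (log2 fold change 1.09 ± 0.21, edgeR adjusted p = 0.000349). P4HA1, a collagen prolyl hydroxylase, had 41.7, 39.5 and 41.5 CPM in PERK KO at day 0 and 18.1, 17.7 and 21.9 CPM in wild type (1.09 ± 0.2, edgeR adjusted p = 0.000203). LDHA had 451, 603 and 457 CPM in PERK KO at day 0, against 253, 249 and 251 CPM in wild type (1.01 ± 0.18, edgeR adjusted p = 0.000118). The 3 PERK KO libraries thus stood above all wild-type libraries for each of these genes before differentiation began. Without PERK KO day 0 replicate 2, the day 0 calls of TPI1 (0.17), LDHB (0.23), PGAM1 (0.37) and EGLN1 (0.55) were lost, and a fit of only the 6 day 0 libraries called 2 members in place of 10.

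Among the 15 genes of the glycolytic steps, PERK KO was higher for 3, 3, 1, 6, 2 and 1 on days 0, 1, 2, 3, 5 and 10, and lower for 0, 0, 4, 3, 10 and 11 on the same days. Over all genes the shares higher were 12.5, 8.11, 20.9, 21.9, 28.6 and 33.3% and the shares lower 8.64, 7.72, 21.7, 23.2, 30.5 and 34.0%, so that 5 of 15 at day 2 lay below the 42.6% called among all genes. Their median difference was 0.33 at day 3, -0.73 at day 5 and -0.81 at day 10. PFKP, the platelet isoform of phosphofructokinase and so part of the committing step, was the member of this group with the smallest p. It had 49.5, 55.5 and 52.1 CPM in PERK KO at day 2, against 129, 137 and 181 CPM in wild type. By day 5 it had 68.7, 77.8 and 70.5 CPM in PERK KO, against 486, 410 and 422 CPM in wild type (-2.6 ± 0.14, edgeR adjusted p = 3.19e-16). The groups did not overlap from day 2 on, and at days 0 and 1 PFKP was not called (-0.15 and -0.14).

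HK1, the hexokinase bound to mitochondria in most tissues, changed sides. It was lower in PERK KO at day 2 (205, 224 and 237 CPM, against 353, 362 and 521 CPM in wild type), higher at day 3 (221, 241 and 241 CPM, against 125, 133 and 179 CPM in wild type) and lower at day 10. At day 10 the libraries stood at 145, 146 and 131 CPM in PERK KO and at 516, 573 and 696 CPM in wild type (-2.08 ± 0.14, edgeR adjusted p = 1.34e-13). Its level was nearly flat in PERK KO between days 2 and 5, and the swings lay in wild type.

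ENO2, the neuron-enriched enolase, ran against most of the group at day 5, where 10 of the 15 step genes were lower in PERK KO. At day 3, where 6 step genes were higher and 3 lower, ENO2 was among the higher ones. PERK KO libraries held 189, 187 and 210 CPM at day 3, against 38.8, 46.2 and 49 CPM in wild type (2.13 ± 0.14, edgeR adjusted p = 7.92e-14). It was higher in PERK KO at days 1, 2, 3 and 5 without overlap, and at day 10 the order was turned, with 158, 181 and 166 CPM in PERK KO against 201, 228 and 262 CPM in wild type (-0.45 ± 0.14, edgeR adjusted p = 0.00432). Neuron markers were also higher in PERK KO at day 5 (151 to 168 CPM summed over 4 genes, against 16.4 to 19.1 CPM in wild type), with ELAVL4 at 0 in both, and at day 2 they were lower (39.5 to 43 CPM in PERK KO, against 79.2 to 120 CPM in wild type). They were lower in PERK KO at day 1 (64.6 to 91.4 CPM, against 143 to 150 CPM in wild type), where ENO2 was higher, and higher at day 10 (51.0 to 52.4 CPM in PERK KO, against 20.1 to 21.3 CPM in wild type), where ENO2 was lower. The part of these cells in the ENO2 difference was not tested.

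ALDOC, the brain-type aldolase, had 45.1, 48.7 and 49.1 CPM in PERK KO at day 10, against 275, 360 and 391 CPM in wild type (-2.84 ± 0.22, edgeR adjusted p = 1.33e-12), the largest difference among the step genes at that day. ALDOA, the common aldolase of muscle, was lower as well (882, 936 and 805 CPM in PERK KO, against 2080, 2930 and 3230 CPM in wild type). PKM, which makes pyruvate, was lower in PERK KO at days 2, 3, 5 and 10, with 505, 618 and 551 CPM in PERK KO at day 5 against 2730, 2170 and 2060 CPM in wild type (-2.05 ± 0.18, edgeR adjusted p = 2.02e-11). The PKM1 and PKM2 splice forms cannot be read from gene counts. GPI, the isomerase after hexokinase, was higher in PERK KO at day 3 (0.85) and lower at days 5 (-0.39) and 10 (-1.46), and its day 5 call was lost without wild-type day 5 replicate 1 (-0.27).

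Genes of the lower part of the pathway did not move together at day 10, where PKM and ENO2 were lower in PERK KO. PGAM1, a mutase, and ENO1, the ubiquitous enolase, were not called there (-0.05 and 0.02), and PGK1 was higher in PERK KO, with 1030, 1140 and 950 CPM against 589, 638 and 786 CPM in wild type (0.63 ± 0.21, edgeR adjusted p = 0.00885). TPI1, the triose phosphate isomerase, was lower (-0.65), a call lost without wild-type day 10 replicate 3 (-0.5) or PERK KO day 10 replicate 3 (-0.6). GAPDH, often taken as a reference gene, was not called at days 0 to 5. At day 10 it had 3990, 4120 and 3690 CPM in PERK KO against 4950, 7300 and 7440 CPM in wild type. The difference was -0.74 ± 0.2 (edgeR adjusted p = 0.00194). The mean effective transcript lengths of these libraries were 2769, 2766 and 2815 nt in PERK KO and 2763, 2521 and 2553 nt in wild type. GAPDH and ALDOA were thus lowest in the longest wild-type library, and the part of library length in these differences was not tested. PFKL, the liver isoform of phosphofructokinase, was lower in PERK KO at days 2 (-0.51) and 5 (-0.75), the first of these lost without wild-type day 2 replicate 3 (-0.31). At day 10 PFKL averaged 214 CPM in PERK KO and 274 CPM in wild type. PFKM, the muscle isoform, was higher at day 1 (0.35) and lower at days 3, 5 and 10 (-0.44, -0.73 and -1.23).

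**Figure D2:**
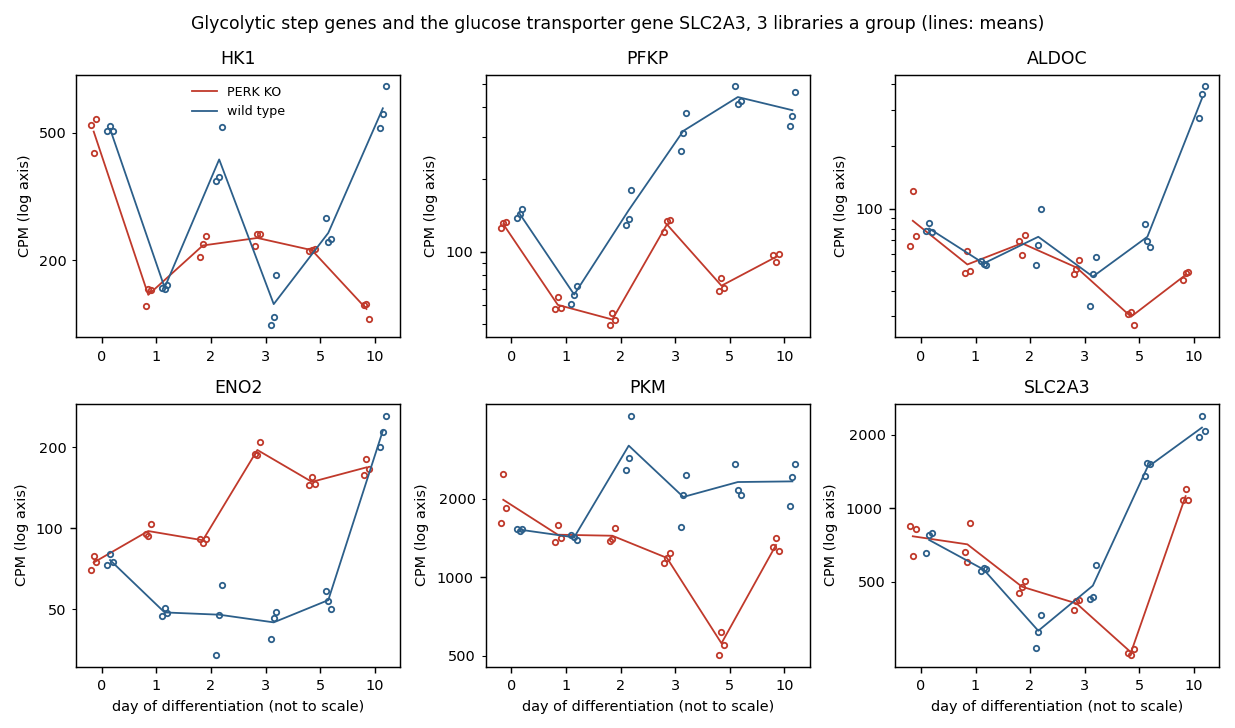
CPM on a log axis for 5 glycolytic step genes and SLC2A3 by day, with 1 circle a library (red PERK KO, blue wild type) and lines through the group means. ENO2 is higher in PERK KO on days 1 to 5, PFKP and PKM part at day 2, and ALDOC and HK1 lie well below wild type in PERK KO at day 10.

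Summed over the 15 step genes, the deposited TPM (a level per transcript length, scaled to one total in each library) stood at 9410, 10021 and 9569 in PERK KO at day 5, against 14887, 13742 and 12825 in wild type. At day 10 the sums were 14773, 15513 and 14000 TPM in PERK KO, against 17292, 19986 and 20834 TPM in wild type. At day 3 the order was turned, with 11523, 11945 and 12086 TPM in PERK KO against 8958, 10676 and 11374 TPM in wild type. The mean effective transcript lengths of these libraries were 2553, 2529 and 2499 nt in PERK KO and 2798, 2659 and 2507 nt in wild type. In wild type the day 3 sum was thus higher where the length was shorter. The day 10 lengths were 2769, 2766 and 2815 nt in PERK KO and 2763, 2521 and 2553 nt in wild type. There the longest wild-type library had the lowest wild-type sum. The part of library length in the sums was not tested. At day 0 the sums were 11163, 12755 and 11780 TPM in PERK KO, against 12976, 13261 and 13474 TPM in wild type. The genotypes did not overlap at these 4 days, and at day 1 they did, with means of 11561 ± 806 TPM in PERK KO and 11095 ± 31.7 TPM in wild type (SD, n = 3 each). With 3 against 3 libraries an exact permutation test cannot go below p = 0.1, so no test was made of sums or shares. GAPDH alone held the largest TPM of the step genes in the groups of day 10, 6070 TPM in PERK KO and 7990 TPM in wild type.

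Isoform use was read as a share of summed TPM, library by library. HK2, the insulin-responsive hexokinase of muscle and fat, took 31.7, 33.9 and 38.3% of HK1 and HK2 in PERK KO at day 1, against 24.8, 23.6 and 21.6% in wild type. On day 5 it took 21.8, 23.0 and 22.8% in PERK KO, against 7.01, 10.2 and 9.66% in wild type. Its counts at day 5 were 98.9, 105 and 105 CPM in PERK KO, against 33.9, 42.4 and 40.7 CPM in wild type (1.4 ± 0.19, edgeR adjusted p = 2.5e-07), and at day 10 they were lower in PERK KO (-1.05) although the HK2 share was higher (46.3 ± 3.11% in PERK KO and 30.6 ± 3.11% in wild type, SD, n = 3 each), and HK1 was lower by more (-2.08).

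PFKP took 21.5, 24.1 and 22.8% of the 3 phosphofructokinase genes in PERK KO at day 5, against 51.3, 51.6 and 53.5% in wild type, where it was the leading isoform. PFKL held the largest mean share in PERK KO at all 6 days and in wild type at days 0, 1 and 2, with 49.5 ± 0.865% at day 5 against 30.2 ± 1.72% in wild type. The PFKM share was 27.7 ± 0.899% in PERK KO at day 5 and 17.7 ± 0.605% in wild type, and its groups overlapped at day 10. The ENO2 share of enolase was 7.59, 7.27 and 7.32% in PERK KO at day 5, against 1.39, 1.54 and 1.43% in wild type. The ALDOC share of aldolase was 5.54 ± 0.761% in PERK KO at day 10 and 12.8 ± 0.541% in wild type. Enolase and aldolase thus kept ENO1 and ALDOA as the main isoform in every group, while the leading phosphofructokinase differed between genotypes from day 3 on. Shares taken from counts in place of TPM moved by more than 1 SD for 155 of 192 group values, so their size depends on the transcript lengths.

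**Figure D3:**
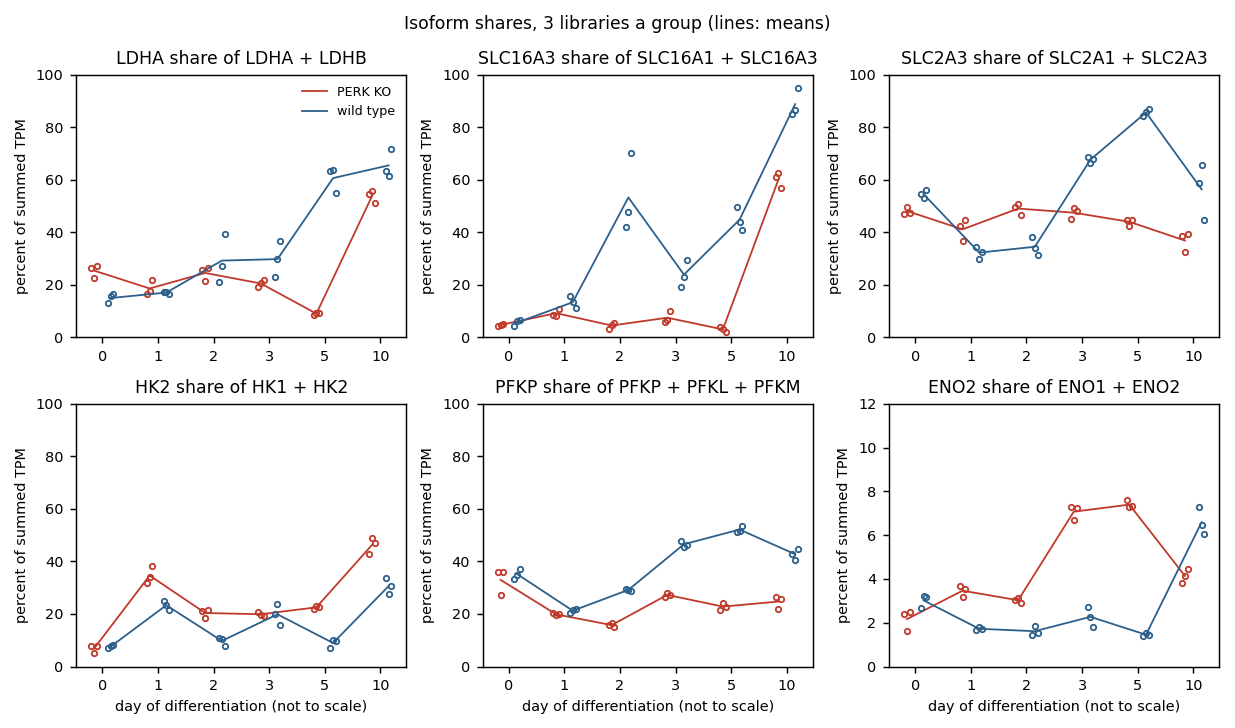
Share of summed TPM (percent, linear axes; the ENO2 axis ends at 12) taken by 1 isoform of each of 6 pairs or triplets by day, with 1 circle a library (red PERK KO, blue wild type) and lines through the means. The SLC16A3 share averages 3.03% in PERK KO and 44.8% in wild type at day 5, the LDHA share 9.02 and 60.6%, and at day 10 PERK KO reaches 60.1 and 53.7%.

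Glucose enters through SLC2A1 (GLUT1) and SLC2A3 (GLUT3). SLC2A3 had 255, 252 and 265 CPM in PERK KO at day 5, against 1360, 1530 and 1520 CPM in wild type (-2.51 ± 0.15, edgeR adjusted p = 2.91e-15). It was higher in PERK KO at day 2 (0.6) and lower at day 10 (-0.93). SLC2A1 was called between genotypes at day 3 alone, where it was higher in PERK KO (188, 189 and 202 CPM, against 82.8, 95.3 and 119 CPM in wild type; 0.97 ± 0.2, edgeR adjusted p = 0.00017), and just missed the threshold at day 5 (0.45, edgeR adjusted p = 0.0506). The SLC2A3 share of both transporters was 44.0 ± 1.29% in PERK KO at day 5 and 85.6 ± 1.23% in wild type (SD, n = 3 each). In PERK KO the share stayed between 32.6 and 50.7% in all 18 libraries, while in wild type it covered 29.9 to 86.7%. Between days 0 and 1 the mean wild-type share fell from 54.5 to 32.2%. SLC2A1 averaged 527 and 528 CPM in wild type at these days, SLC2A3 741 and 561 CPM. The estimated effective length of SLC2A1 was 2916 nt in wild type at day 0 and 1599 nt at day 1. Its part in the range of the share was not tested.

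Lactate dehydrogenase showed the clearest opposite movement. LDHA, whose subunit favours lactate formation, had 142, 150 and 154 CPM in PERK KO at day 5, against 899, 881 and 766 CPM in wild type (-2.51 ± 0.18, edgeR adjusted p = 5.38e-13). LDHB, whose subunit favours pyruvate formation, had 975, 955 and 1020 CPM in PERK KO at that day, against 355, 386 and 458 CPM in wild type (1.3 ± 0.17, edgeR adjusted p = 9.26e-08). Neither gene's groups overlapped. By day 10 LDHA was at 1140, 1210 and 1020 CPM in PERK KO and 1050, 1050 and 1200 CPM in wild type, and was not called (0.02 ± 0.17, edgeR adjusted p = 0.916), while LDHB was still higher in PERK KO (0.75).

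As a share of the pair in TPM, LDHA held 8.64, 9.22 and 9.18% in PERK KO at day 5, against 63.3, 63.5 and 55.0% in wild type. At day 0 the order was the other way, with 26.4, 22.5 and 27.3% in PERK KO against 12.9, 15.6 and 16.4% in wild type. At days 1 and 2 the groups overlapped, and at day 10 they did not, at 54.4, 55.6 and 51.2% in PERK KO and 63.2, 61.4 and 71.7% in wild type. The LDHA promoter printed above held 5 HIF core matches before the start, with overlapping matches counted apart. That of LDHB held none there and 1 over the whole window of 300 bases. The part of these letters in the shares was not tested.

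SLC16A3, the low-affinity exporter MCT4 of glycolytic tissues, gave the largest differences of the transport genes. At day 2 it had 18.5, 17.8 and 23.5 CPM in PERK KO, against 155, 177 and 271 CPM in wild type (-3.33 ± 0.22, edgeR adjusted p = 1.43e-13). Later, at day 5, it had 11.8, 11.6 and 9.96 CPM in PERK KO, against 254, 204 and 206 CPM in wild type (-4.32 ± 0.23, edgeR adjusted p = 4.35e-16). PERK KO day 5 libraries were at the level of the day 0 libraries, 11.9, 12.5 and 11.9 CPM in PERK KO and 10.1, 11.3 and 10.3 CPM in wild type. By day 10 it stood at 176, 205 and 169 CPM in PERK KO and at 579, 575 and 1010 CPM in wild type. SLC16A1, the broadly expressed transporter MCT1, was higher in PERK KO at days 2, 5 and 10 (0.89, 0.38 and 0.52). Its day 5 call was lost when any of 5 single libraries was left out (0.27 without wild-type day 5 replicate 1) and its day 10 call without wild-type day 10 replicate 3 (0.35). With transcript length as an offset the day 5 difference was 0.08 (edgeR adjusted p = 0.756) and that of day 10 was 0.41 (0.0824). The SLC16A3 share of the pair was 3.33, 4.63 and 5.53% in PERK KO at day 2, against 41.8, 47.7 and 70.2% in wild type. The SLC16A3 window above held no HIF core match, and the part of these letters in the share was not tested.

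**Figure D4:**
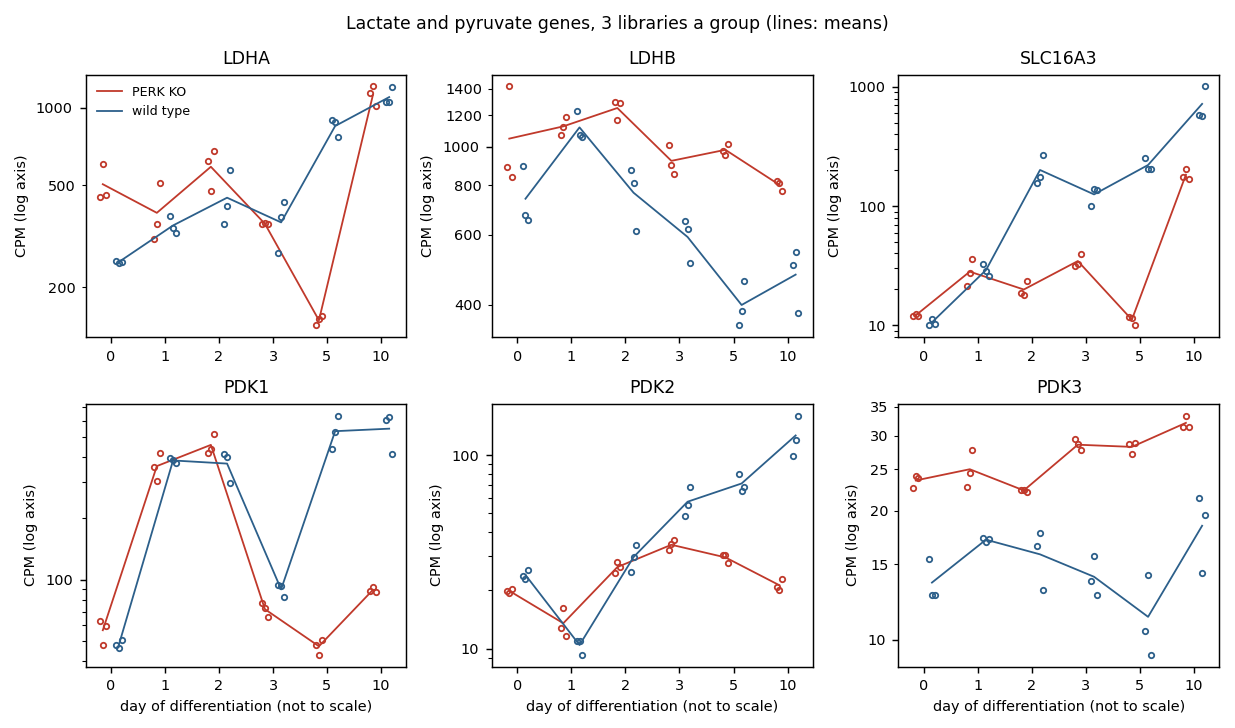
CPM on a log axis for lactate and pyruvate genes by day, with 1 circle a library (red PERK KO, blue wild type) and lines through the group means. LDHA, SLC16A3 and PDK1 reach their widest gap at day 5, where PERK KO is lower, while LDHB and PDK3 lie higher in PERK KO at that day.

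The pyruvate dehydrogenase kinases parted by isoform. PDK1, the isoform best known as a HIF target, was not called between genotypes up to day 3, with 357, 305 and 419 CPM in PERK KO at day 1 against 393, 387 and 372 CPM in wild type. At day 5 it had 48.2, 43.1 and 50.7 CPM in PERK KO, against 438, 528 and 636 CPM in wild type (-3.5 ± 0.17, edgeR adjusted p = 2.85e-17), and at day 10 88.6, 92.1 and 87.5 CPM in PERK KO, against 609, 624 and 415 CPM in wild type. Both genotypes thus stood high at days 1 and 2 and low at day 3, and at day 5 wild type was high again and PERK KO was not (interaction at day 5 -3.73 ± 0.22, edgeR adjusted p = 2.05e-14). PDK2, the broadly expressed isoform, had 20.8, 20.2 and 22.8 CPM in PERK KO at day 10, against 99.3, 120 and 160 CPM in wild type (-2.57 ± 0.16, edgeR adjusted p = 9.98e-15).

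PDK3 was the exception and the single member called higher in PERK KO at all 6 days, with differences of 0.79, 0.55, 0.49, 1.02, 1.32 and 0.8 in order of day. By day 5 it had 28.7, 27.2 and 28.8 CPM in PERK KO, against 10.5, 14.2 and 9.23 CPM in wild type (1.32 ± 0.15, edgeR adjusted p = 4.87e-09). Its day 1 call was lost without PERK KO day 1 replicate 3 (0.47) and its day 2 call without wild-type day 2 replicate 3 (0.38). Both were also lost with transcript length as an offset (0.39 and 0.32) and without a filter on low counts (edgeR adjusted p = 0.0705 and 0.0632), and the day 0 call was lost in a fit of only the 6 day 0 libraries (edgeR adjusted p = 0.0541). In TPM, PDK3 made up 30.0, 26.9 and 27.4% of the 4 kinase genes in PERK KO at day 5, against 2.78, 3.01 and 2.1% in wild type. PDK1 made up 31.6, 27.0 and 35.8% in PERK KO and 68.0, 78.7 and 80.7% in wild type at the same day.

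PDK4, the isoform of fasted muscle and heart, was almost silent until day 10, when it had 0.262, 0.155 and 0.474 CPM in PERK KO against 8.78, 4.99 and 4.14 CPM in wild type (-4.27 ± 0.6, edgeR adjusted p = 4.13e-07). At day 2 it had 7 counts in PERK KO and 0 counts in wild type over 3 libraries each, and was not called. With wild type set to a floor of 3 counts for the group the ratio was 2.21, which is no lower bound, since 7 counts are themselves uncertain. At day 3 it had 9, 15 and 7 counts in PERK KO and 4, 2 and 1 counts in wild type, a call that was lost when any of 3 single libraries was left out (1.75 without wild-type day 3 replicate 3, edgeR adjusted p = 0.104). PDHA1, the catalytic subunit that these kinases phosphorylate, had 73.9, 67.5 and 69.7 CPM in PERK KO at day 10, against 189, 222 and 217 CPM in wild type (-1.57 ± 0.11, edgeR adjusted p = 6.21e-14). Enzyme activity and phosphorylation were not measured.

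The PFKFB enzymes set fructose 2,6-bisphosphate, the activator of phosphofructokinase. PFKFB3, the form with the highest kinase to phosphatase ratio, had 40.9, 44.6 and 43.3 CPM in PERK KO at day 5, against 228, 191 and 189 CPM in wild type (-2.24 ± 0.18, edgeR adjusted p = 4.48e-12). It was lower in PERK KO at days 2, 3, 5 and 10, and its day 3 call (-0.44) was lost when any of 4 single libraries was left out (-0.12 without wild-type day 3 replicate 3). PFKFB4 had 13.9, 13.4 and 12.7 CPM in PERK KO at day 5, against 58.5, 47.9 and 46.4 CPM in wild type (-1.93 ± 0.24, edgeR adjusted p = 3.78e-08), and at day 10 145, 186 and 146 CPM in PERK KO, against 177, 144 and 304 CPM in wild type, where the groups overlapped and the gene was not called. PFKFB2, the heart-type form, was higher in PERK KO at days 1, 2, 3 and 5 (1.26 ± 0.17 at day 3, edgeR adjusted p = 2.59e-07) and lower at day 10, with 11.3, 12.5 and 11.6 CPM in PERK KO against 29.9, 25.7 and 21.1 CPM in wild type. Its day 1 and day 2 calls were lost when any of several single libraries was left out (0.31 at day 2 without wild-type day 2 replicate 3). At day 10 PFKFB4 was the leading form in both genotypes, at 78.3 ± 0.476% of the 3 in PERK KO and 60.3 ± 5.84% in wild type (SD, n = 3 each).

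Turning to the hypoxia response, the messenger levels of the 2 HIF alpha subunits differed in opposite directions at days 5 and 10. HIF1A, which is controlled mainly through protein stability, had 254, 228 and 256 CPM in PERK KO at day 5, against 123, 134 and 126 CPM in wild type (0.95 ± 0.31, edgeR adjusted p = 0.0104). At day 10 it had 219, 200 and 194 CPM in PERK KO and 127, 94.4 and 64.6 CPM in wild type (1.1 ± 0.31, edgeR adjusted p = 0.003). The mean effective transcript lengths of the day 10 libraries were 2769, 2766 and 2815 nt in PERK KO and 2763, 2521 and 2553 nt in wild type. In wild type HIF1A was highest in the longest of these, and the part of library length in its difference was not tested. At day 2 HIF1A was called higher in PERK KO (217, 183 and 185 CPM, against 121, 116 and 36.9 CPM in wild type). Without wild-type day 2 replicate 3, the lowest library, the difference was 0.72 and not called (edgeR adjusted p = 0.065).

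EPAS1, the HIF2 alpha subunit prominent in endothelium, had 20, 17 and 11 counts in PERK KO at day 5, against 1321, 1294 and 1400 counts in wild type, or 1.15, 0.919 and 0.562 CPM against 83.6, 71.6 and 62.4 CPM (-6.37 ± 0.32, edgeR adjusted p = 6.6e-17). At day 3 it had 0.8, 1.42 and 1.35 CPM in PERK KO and 11.2, 8.55 and 16.1 CPM in wild type, and at day 10 23.3, 12.6 and 27.4 CPM in PERK KO and 52.8, 40.6 and 51.1 CPM in wild type. Both genotypes held under 1 CPM at day 2, where EPAS1 was not called (0.29). The 4 endothelial markers, KDR among them, summed to 60.4 to 68.1 CPM in PERK KO at day 5, against 374 to 439 CPM in wild type, and all 4 were counted. Their part in the EPAS1 difference was not tested.

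Of the prolyl hydroxylases that mark HIF alpha for destruction, EGLN3 had 45.1, 46.9 and 50 CPM in PERK KO at day 3, against 9.32, 8.34 and 11.9 CPM in wild type (2.26 ± 0.17, edgeR adjusted p = 2.18e-12). On day 5 it had 41.2, 41.9 and 43.1 CPM in PERK KO, against 6.96, 7.69 and 8.83 CPM in wild type (2.42 ± 0.18, edgeR adjusted p = 5.11e-13). It was lower in PERK KO at day 10, with 14.6, 15.9 and 14.7 CPM against 30.9, 29.5 and 42.3 CPM in wild type. EGLN1, the main oxygen sensor, was higher in PERK KO at days 0 and 3 (0.67 and 0.7) and lower at day 5 (-0.66 ± 0.19, edgeR adjusted p = 0.00427). The 2 hydroxylase genes thus differed in opposite directions at day 5.

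Of the 7 HIF target genes outside metabolism, 1 was higher in PERK KO at day 5 (ADM) and 4 were lower (VEGFA, BNIP3, P4HA1 and NDRG1). CA9 and ANKRD37 were not called. Over all genes 28.6% were higher, 30.5% lower and 59.0% called in all at that day, so the count called is near that background. VEGFA, the vascular growth factor, stood at 64.8, 61.9 and 63.8 CPM in PERK KO at day 5, against 289, 297 and 317 CPM in wild type (-2.25 ± 0.13, edgeR adjusted p = 9.13e-16). At day 10 it stood at 250, 264 and 242 CPM in PERK KO, against 1100, 1440 and 1100 CPM in wild type (-2.26 ± 0.12, edgeR adjusted p = 7.37e-16). Up to day 2 it was not called, and its small day 3 difference (-0.31) was lost when any of several libraries was left out (-0.23 without wild-type day 3 replicate 2).

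BNIP3 rose early in both genotypes, to 212, 181 and 258 CPM in PERK KO and 208, 206 and 207 CPM in wild type at day 1, and was not called between them (0.07). Later, at day 5, it stood at 40.6, 38.5 and 42.4 CPM in PERK KO, against 72.6, 81 and 79.3 CPM in wild type (-0.94 ± 0.14, edgeR adjusted p = 1.09e-06). P4HA1 went the other way from its day 0 excess, at 12.6, 10.9 and 11.3 CPM in PERK KO at day 5 against 27.3, 33.8 and 43.9 CPM in wild type (-1.59 ± 0.2, edgeR adjusted p = 6.7e-08). By day 10 it had 230, 254 and 209 CPM in PERK KO and 269, 220 and 215 CPM in wild type, overlapping groups (-0.02).

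ADM, a vasodilator peptide whose promoter above holds 1 core match, ran the other way. It had 13.5, 12.9 and 17.9 CPM in PERK KO at day 1, against 1.36, 2.04 and 1.01 CPM in wild type (3.33 ± 0.29, edgeR adjusted p = 3.16e-10). At day 2 it had 60.9, 60.2 and 56.1 CPM in PERK KO, against 1.95, 1.78 and 3.38 CPM in wild type (4.63 ± 0.28, edgeR adjusted p = 2.34e-14). It was called higher in PERK KO at every day from 1 to 10 (2.67, 1.07 and 1.05 at days 3, 5 and 10), while at day 0 the groups overlapped and it was not called (-0.45).

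NDRG1, a gene induced by hypoxia and by differentiation, showed the widest difference. It had 0, 0 and 0 counts in PERK KO at day 3, against 416, 383 and 551 counts in wild type, at least 467-fold lower in PERK KO against a floor of 3 counts over the group. At day 5 it had 0, 0 and 2 counts in PERK KO, against 626, 708 and 789 counts in wild type, a ratio of wild type to PERK KO of 1050 with a 95% exact counting interval of 289 to 8640. It was counted in all PERK KO libraries of the other days, with 101, 75 and 128 counts at day 0 (62, 73 and 67 in wild type), 41, 33 and 51 at day 2 (160, 214 and 267 in wild type) and 641, 736 and 803 at day 10 (2875, 1839 and 3845 in wild type). In CPM the day 10 libraries stood at 33.6, 38.1 and 34.6 in PERK KO and 129, 124 and 215 in wild type (-2.14 ± 0.22, edgeR adjusted p = 1.68e-09). PERK KO libraries thus held the gene at days 0, 1 and 2 (30, 35 and 34 counts at day 1, against 104, 110 and 68 in wild type), almost none of it at days 3 and 5, and much of it again at day 10. These bounds and intervals cover counting error only.

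CA9, a carbonic anhydrase commonly read as a hypoxia marker, was close to absent, with 1 to 21 counts in any library, and was not called between genotypes at any day. ANKRD37 had 3.25, 4.35 and 2.72 CPM in PERK KO at day 10, against 9.23, 8.57 and 7.21 CPM in wild type (-1.28 ± 0.32, edgeR adjusted p = 0.000972), and was not called earlier.

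**Figure D5:**
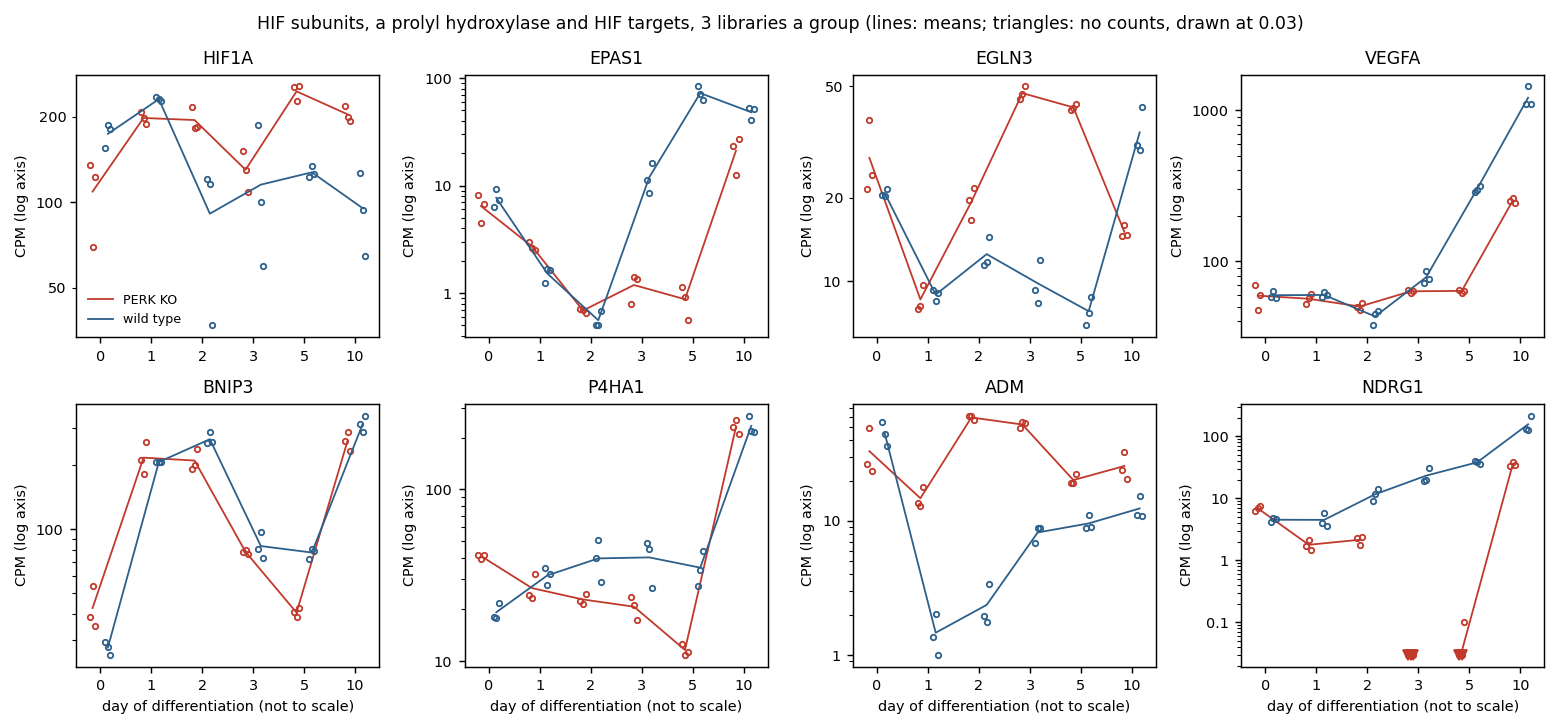
CPM on a log axis for HIF1A, EPAS1, EGLN3 and 5 HIF target genes by day, with 1 circle a library (red PERK KO, blue wild type), lines through the group means and triangles for libraries with no counts. PERK KO lies below wild type for VEGFA and EPAS1 at day 5 and loses NDRG1 at days 3 and 5, and lies above it for EGLN3 at days 3 and 5 and for ADM from day 1 on.

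Within each genotype the members were also set against day 0, with the caution that all such contrasts of a genotype share its 3 day 0 libraries. In PERK KO, day 1 against day 0 gave 11 members higher and 14 lower, where 18.0% of all genes were higher, 25.1% lower and 43.1% called in all. For PERK KO, day 2 gave 12 higher and 10 lower (17.5%, 23.8% and 41.4% of all genes). For PERK KO, day 3 gave 14 higher and 12 lower (18.5%, 21.8% and 40.3% of all genes). For PERK KO, day 5 gave 8 higher and 17 lower (21.5%, 27.3% and 48.8% of all genes). For PERK KO, day 10 gave 21 higher and 11 lower (29.9%, 31.9% and 61.8% of all genes). In wild type, day 1 against day 0 gave 10 members higher and 12 lower, where 20.9% of all genes were higher, 23.7% lower and 44.6% called in all. In wild type, day 2 gave 13 higher and 10 lower (25.4%, 25.1% and 50.5% of all genes). In wild type, day 3 gave 18 higher and 12 lower (29.3%, 27.5% and 56.8% of all genes). In wild type, day 5 gave 21 higher and 8 lower (31.4%, 30.5% and 61.9% of all genes). In wild type, day 10 gave 32 higher and 5 lower (34.9%, 34.3% and 69.2% of all genes). The median change of the members at day 10 was 0.36 in PERK KO and 1.46 in wild type, beside all-gene medians of 0.01 and 0.00. By day 5 it was -0.19 in PERK KO and 0.61 in wild type, beside -0.06 and 0.00.

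In wild type, members passed their day 0 level at different days. BNIP3, PDK1 and SLC16A3 were above it at day 1 (2.9 ± 0.15, 2.99 ± 0.16 and 1.46 ± 0.22 over day 0), NDRG1 was called higher first at day 2 (1.36), and VEGFA was lower at day 2 (-0.47) and higher at days 3, 5 and 10 (0.39, 2.34 and 4.35). The course was not steady for all: BNIP3 averaged 207, 265, 83.3, 77.6 and 314 CPM on days 1, 2, 3, 5 and 10 in wild type, and PDK1 averaged 384, 370, 89.9, 534 and 550 CPM. P4HA1, PFKFB4 and EGLN1 stood above day 0 at day 10 by 3.61, 4.15 and 2.97. ADM fell in wild type at day 1 (-4.93 ± 0.29, edgeR adjusted p = 1.83e-14) and stayed below its day 0 level at day 10 (-1.87). In PERK KO the fall of ADM at day 1 was smaller (-1.15 ± 0.24), and the interaction was 3.78 ± 0.37 (edgeR adjusted p = 1.22e-08).

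At day 10 PERK KO too stood above its day 0 level for much of the set. SLC16A3, PFKFB4, P4HA1, BNIP3, VEGFA and LDHA at day 10 exceeded their day 0 level in PERK KO by 3.92, 3.92, 2.5, 2.61, 2.09 and 1.15 log2 units, where at day 5 none of these 6 was called higher than at day 0 in PERK KO. In wild type the same genes at day 10 exceeded day 0 by 6.1, 4.15, 3.61, 3.5, 4.35 and 2.13. HIF1A was higher in PERK KO at day 10 than at day 0 (0.9) and lower in wild type (-0.87), and without PERK KO day 0 replicate 2 the first of these was not called (0.66, edgeR adjusted p = 0.11).

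The interaction of genotype and day, which tests whether the change since day 0 differed, was positive for 5 members and negative for 6 at day 1, a total of 11 (10.2%, 12.9% and 23.1% of all genes). For day 2 it was positive for 6 members and negative for 9, a total of 15 (16.2%, 19.5% and 35.7% of all genes). For day 3 it was positive for 8 members and negative for 11, a total of 19 (18.0%, 20.9% and 38.9% of all genes). For day 5 it was positive for 9 members and negative for 24, a total of 33 (23.2%, 27.0% and 50.1% of all genes). For day 10 it was positive for 3 members and negative for 27, a total of 30 (26.3%, 29.4% and 55.7% of all genes). A negative value means that PERK KO rose less or fell more. The negative ones at day 5 included LDHA (-3.52 ± 0.25, edgeR adjusted p = 1.08e-12), SLC2A3 (-2.56 ± 0.2), PFKP (-2.46 ± 0.19) and VEGFA (-2.24 ± 0.17). The positive ones at day 5 were ENO2, HIF1A, LDHB, SLC2A1, PFKFB2, PDK3, EGLN3, ADM and HK2, of which PFKFB2 was lost when any of 9 single libraries was left out (0.34 without PERK KO day 0 replicate 2). At day 10 the positive ones were ADM, HIF1A and SLC2A1, and the SLC2A1 value of 0.69 became -0.12 (edgeR adjusted p = 0.773) with transcript length as an offset, which also left 0.06 (0.898) for SLC2A1 at day 5. The effective length of SLC2A1 as the authors' software estimated it ran between 1440 nt in wild type at day 2 and 2916 nt in wild type at day 0, which moves its TPM against its CPM.

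Other genes of the same pathways were counted too. Of 46 further glycolysis and pyruvate genes 38 were tested, and 8 were higher and 20 lower in PERK KO at day 10, where 33.3% of all genes were higher, 34.0% lower and 67.3% called in all. At day 5 13 of them were higher and 13 lower (28.6% and 30.5% of all genes), with a median of 0.1 in place of the -0.73 of the 15 step genes. Of 40 further hypoxia genes all 40 were tested, and 9 were higher and 23 lower at day 10, and 9 higher and 22 lower at day 5. The glucose transporter gene SLC2A4 (GLUT4), typical of muscle, averaged 3.09 ± 0.575 CPM in PERK KO at day 10 and 48.0 ± 7.25 CPM in wild type (SD, n = 3 each; -3.95 ± 0.17, edgeR adjusted p = 2.59e-18). TIGAR, which lowers fructose 2,6-bisphosphate, averaged 12 ± 0.37 CPM in PERK KO and 2.28 ± 1.13 CPM in wild type (2.36 ± 0.25). At day 2 the gluconeogenic FBP1 averaged 5.06 ± 0.642 CPM in PERK KO and 0.124 ± 0.118 CPM in wild type (5.25 ± 0.4), and LOX, a collagen cross-linking enzyme and HIF target, 0.382 ± 0.2 CPM in PERK KO and 94.0 ± 13.9 CPM in wild type (-7.93 ± 0.38, edgeR adjusted p = 1.16e-16). STC1, a secreted glycoprotein raised by hypoxia, was higher in PERK KO at day 10 (167 ± 49.2 CPM in PERK KO and 6.22 ± 0.975 CPM in wild type).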

How the data were processed

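RNA of 36 libraries (12 groups of 3) was sequenced and, per the submitters' processing notes, handled with CASAVA, FastQC, STAR and RSEM on GRCh38 (hg38). No tool version is given in the sources used here. The deposited values are expected counts per gene, not normalized, and the authors' sample files add TPM and effective gene length from RSEM, per the file headers. Expected counts were rounded and tested with edgeR 4.0.16 (R 4.3.3, limma 3.58.1): filterByExpr, TMM factors, a quasi-likelihood fit of all 12 groups with 24 residual degrees of freedom, and Benjamini-Hochberg adjustment over 19772 genes at 0.05. The biological coefficient of variation was 18.7%. Descriptive values came from Python 3.11.15 (numpy 2.4.6, pandas 2.3.3) and plots from matplotlib 3.10.9.

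The members and gene lists were chosen with earlier results of these data known. Genes named with full values were those with the smallest p-values within each role, besides members of isoform pairs. RSEM shares ambiguous reads between copies. BNIP3 pseudogenes held a median of 1.79% of the BNIP3 family's counts and at most 8.42%. Alternatives were DESeq2 1.42.0, RLE scaling, other filters, a transcript-length offset, copies added, a replicate block, only the compared libraries, and leaving out libraries. The labels name no batch. Replicate numbers are not stated to pair the samples, and the main fit did not use them. The edgeR step was tested on simulated data for the day 3 comparison of genotypes over 19547 genes. It called 95.5% of 66 genes changed 4.0-fold, 67.2% of 67 changed 2.0-fold and 28.4% of 67 changed 1.5-fold. There were 11 false calls. No other gene was changed in the simulation, whereas 45.1% of genes were called in the data at day 3. The rates in the data may therefore differ. Promoters of 35 of the 40 members were taken from RefSeq.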

Additional observations from a re-analysis of the deposited data

Results flagged for a closer look

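The change since day 0 differed between PERK KO and wild type, by the interaction test in edgeR, for 11 of 40 members by day 1, 15 by day 2 and 19 by day 3, where 23.1, 35.7 and 38.9% of all genes were called. It differed for 33 members on day 5 (50.1% of all genes) and for 30 on day 10 (55.7%). At day 2 the interaction on the log2 scale was 5.08 for ADM, 0.95 for ENO2, 1.77 for HIF1A, -3.53 for SLC16A3, -3.04 for NDRG1 and -1.36 for PFKP. At day 10 it was 1.5 for ADM, 1.77 for HIF1A, 0.69 for SLC2A1 (-0.12, edgeR adjusted p = 0.773, with transcript length as an offset), -1.94 for PDHA1, -2.25 for VEGFA and -2.85 for PDK1. Positive values mean that PERK KO rose more or fell less than wild type. Cell type markers differed between the genotypes at these days, and their part in these values was not tested.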

How the results depend on the processing

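Of 124 member calls between genotypes, 124 stayed past the threshold with DESeq2 and with RLE scaling, 123 with copies added and with the stricter filter, 120 without 2 libraries (replicate 2 of PERK KO at day 0, replicate 3 of wild type at day 2), 113 with a length offset, 112 with no filter and 110 in fits of only the compared libraries; no call changed sign. The length offset turned the SLC2A1 interaction at day 10 to -0.12. It also left 5 members called at day 1 in place of 8. Fits of only the compared libraries gave the widest moves. Between genotypes they called 304 genes and 2 members at day 0 (4177 and 10 in the full fit), and 7355 genes and 17 members at day 1 (3129 and 8). For PERK KO against its day 0 they called 4268 genes and 16 members at day 1, 4399 and 12 at day 2, 4186 and 15 at day 3, and 5973 genes at day 5, in place of 8517 and 25, 8180 and 22, 7968 and 26, and 9645. For the interaction at day 2 they called 4272 genes (7063). Without those 2 libraries, 4931 genes were called between genotypes at day 1. The cause of these moves was not tested.

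With each library left out in turn, the calls ranged as follows. Between genotypes called members numbered 7 to 13 at day 0, 3 to 7 at day 1, 15 to 17 at day 2, 21 to 24 at day 3, 29 to 32 at day 5 and 29 to 31 at day 10. Between genotypes called genes numbered 2958 to 4545 at day 0, 2146 to 2446 at day 1, 6464 to 8540 at day 2, 7948 to 8670 at day 3, 10532 to 11006 at day 5 and 12342 to 13112 at day 10. In PERK KO against day 0 called members numbered 18 to 27 at day 1, 16 to 22 at day 2, 22 to 26 at day 3, 21 to 26 at day 5 and 28 to 31 at day 10. In PERK KO against day 0 called genes numbered 6903 to 8876 at day 1, 6649 to 8484 at day 2, 6644 to 8228 at day 3, 8173 to 9807 at day 5 and 11273 to 12169 at day 10. In wild type against day 0 called members numbered 18 to 21 at day 1, 21 to 23 at day 2, 24 to 28 at day 3, 27 to 29 at day 5 and 34 to 36 at day 10. In wild type against day 0 called genes numbered 7424 to 7893 at day 1, 9089 to 9586 at day 2, 10335 to 11218 at day 3, 11484 to 11591 at day 5 and 13138 to 13387 at day 10. For the interaction called members numbered 7 to 12 at day 1, 11 to 21 at day 2, 18 to 21 at day 3, 29 to 33 at day 5 and 28 to 30 at day 10. For the interaction called genes numbered 3585 to 4907 at day 1, 6057 to 7468 at day 2, 7035 to 8431 at day 3, 9073 to 10107 at day 5 and 10280 to 11290 at day 10. The members called between genotypes at day 1 numbered 3 without PERK KO day 1 replicate 3, and those of the interaction at day 1 numbered 7 without wild-type day 0 replicate 3.

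Replicate numbers were not taken as pairs. In 0 of 16 comparisons did every same-numbered pair correlate above 0.1 (range -0.27 to 0.59). At day 3, PERK KO and wild type correlated at 0.59, -0.03 and 0.53 for replicates 1, 2 and 3. The check set PERK KO against wild type and later days against day 0. With 3 libraries a group it cannot exclude a shared batch. With a replicate block, 17 members were called between genotypes at day 2 in place of 18, and 33 at day 5 in place of 32; PFKFB2 and BNIP3 at day 2 were lost. Depth limited CA9, PDK4 before day 10 and NDRG1 in PERK KO at days 3 and 5.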

Other observations

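GAPDH, in common use as a reference gene for expression assays, varied less across the 12 groups than several others. Its highest group mean in CPM was 1.93 times its lowest, against 4.03 for ACTB, 4.34 for B2M, 9.17 for HPRT1, 3.58 for PPIA and 2.04 for YWHAZ. TBP (1.97), GUSB (1.82) and RPLP0 (1.72) were close to it. These ratios are descriptions over group means and carry no test. They leave out the spread between libraries. Single libraries held between 2740 CPM of GAPDH (wild-type day 3 replicate 1) and 8190 CPM (PERK KO day 0 replicate 2). GAPDH was also called lower in PERK KO at day 10.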
